A study of Homo sapiens with 24 samples.

Results

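The genes described here are 10 genes of ERBB receptor signalling in OE33 cells. They are the receptors EGFR, ERBB2 and ERBB3, the ERBB2 neighbours GRB7, MIEN1 and STARD3 on chromosome 17, and the ligands AREG, EREG, HBEGF and TGFA. They were chosen by name, and each matched 1 of the 61860 Ensembl identifiers in the count tables. All 10 had enough counts to be tested in all 4 experiments.

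ERBB receptors are tyrosine kinases of the cell surface that act in pairs. EGFR binds EGF-type ligands, ERBB3 binds neuregulins and has little kinase activity of its own, and ERBB2 has no known ligand and works as the preferred partner of the others. Amphiregulin (AREG), epiregulin (EREG), heparin-binding EGF-like growth factor (HBEGF) and transforming growth factor alpha (TGFA) are made as membrane proteins and are shed by ADAM proteases. STARD3, a cholesterol transporter of late endosomes, MIEN1, a small membrane-anchored protein linked to cell migration, and GRB7, an SH2 adaptor that binds activated ERBB receptors, lie next to ERBB2 and are usually amplified with it in tumors. Amplification of ERBB2 is frequent in esophageal adenocarcinoma. DNA copy number was not measured in the data used here.

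OE33 is a cell line established from a human adenocarcinoma of the lower esophagus, and all 24 libraries came from it. Poly(A) RNA was sequenced in 4 experiments, each with 3 treated and 3 control libraries. In the first, OE33 cells were injected under the skin of male BALB/c-nu mice, which were 4 weeks old at purchase and had been fed for 8 weeks on chow rich in fat (the HFD group) or on normal chow (ND). The tumors were removed 21 days later with the mice still on the same diet. Nude mice lack T cells, and HFD mice were kept only when their weight passed a limit set from the ND mice. In the second, cultured cells carried an HA-TRIM15 plasmid (TRIM15-OE) or the empty vector (TRIM15-EV) for 48 h. In the third, they carried a plasmid with an shRNA against YY2 (YY2-sh) or the control shRNA (YY2-NC) for 72 h. The fourth compared an shRNA against FOXRED1 (FOXRED1-sh) with its own control shRNA (FOXRED1-NC), also at 72 h. The sources used here do not say which of the study's shRNAs was sequenced. TRIM15 is a ubiquitin ligase, YY2 a zinc finger transcription factor and FOXRED1 a mitochondrial protein needed for complex I, and the comparisons ask what each does to the transcriptome of these tumor cells.

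The sequences just before the start sites are shown for EREG and AREG and for ERBB2 and STARD3. The count ratio of EREG to AREG differed between treated and control libraries in each of the 4 experiments, without overlap. Those of GRB7 to ERBB2 and of ERBB3 to EGFR did so too, and the share among all gene pairs was not computed. RefSeq promoter entries (GRCh38.p14) were found for 8 of the 10 genes, in 10 entries, and not for ERBB3 and GRB7. EREG and AREG lie 80.0 kb apart on the plus strand of chromosome 4. The EREG window is chr4:74364895-74365142 and the AREG window chr4:74444886-74445133, each of 248 bases that end just before the GENCODE start of the gene. Capitals mark TATAAA and TGACGTCA, the latter a cAMP response element.
EREG: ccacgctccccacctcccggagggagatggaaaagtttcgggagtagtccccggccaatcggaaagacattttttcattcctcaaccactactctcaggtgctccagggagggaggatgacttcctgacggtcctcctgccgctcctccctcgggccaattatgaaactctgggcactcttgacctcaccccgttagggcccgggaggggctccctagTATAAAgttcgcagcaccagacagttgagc
AREG: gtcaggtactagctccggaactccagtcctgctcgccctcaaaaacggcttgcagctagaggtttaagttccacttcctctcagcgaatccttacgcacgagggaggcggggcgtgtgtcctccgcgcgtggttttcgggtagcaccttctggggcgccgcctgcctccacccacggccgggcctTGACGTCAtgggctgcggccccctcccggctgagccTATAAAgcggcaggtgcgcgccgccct
TATAAA began 32 bases before the RefSeq start of EREG and 29 bases before that of AREG. On either strand it stood between 40 and 20 bases before the start in 2.87% of the 35116 RefSeq promoter entries, and anywhere in the 250 bases before the start in 10.7%. Wholly within the last 30 bases it stood in 2.18% of entries, and of the genes here only in AREG. One of the EGFR entries also held it, 36 bases before its start, but that entry is for an alternative start far inside the gene and not for the EGFR start given with its values. TGACGTCA stood 65 bases before the AREG start, and 1.65% of promoter entries held it in the 250 bases before the start.

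The counts of ERBB2 and STARD3 kept an almost fixed ratio in both knockdown experiments, but the ratio of STARD3 to ERBB2 was lower in HFD than in ND. Both genes held CCGGAAG, one of the sequences that ETS factors bind, in the last 30 bases before the RefSeq start of their entries. Other forms of the ETS site were not searched. For both genes this start lies downstream of the GENCODE gene start, so that the windows are inside the genes as GENCODE draws them. These windows, on the plus strand, are chr17:39688064-39688093 for ERBB2 and chr17:39637114-39637143 for STARD3, with CCGGAAG or its reverse complement in capitals.
ERBB2: tccaCTTCCGGagtaaCCGGAAGttcctgt
STARD3: tcagcggcggaagtggcgctgCCGGAAGat
The ERBB2 window held the motif once on each strand, 26 and 14 bases before the RefSeq start, and the STARD3 window once, 9 bases before it. Of all promoter entries 2.42% held it in this stretch, and 8.52% anywhere in the 250 bases before the start. Between 40 and 20 bases before the start 1.58% of entries held it, and of the genes here only ERBB2. CCATNTT, the core that YY factors bind, was searched on both strands of the 250 bases and was in none of the 10 entries of these genes, against 11.6% of all entries. These matches are letters in a window, and no binding was measured.

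Total counts ranged from 14299807 to 45994561 per library. The targeted genes differed between treated and control libraries in the direction of the labels. TRIM15 had 111 to 181 counts in TRIM15-OE and 0 in all 3 TRIM15-EV libraries, YY2 had 11 or 12 counts in YY2-sh and 40 to 46 in YY2-NC, and FOXRED1 had 129 to 207 counts in FOXRED1-sh and 254 to 322 in FOXRED1-NC. In CPM, FOXRED1 was at 8.69 to 11.1 in FOXRED1-sh and 17.1 to 17.6 in FOXRED1-NC, and this control lay below the other control groups (28.1 to 38.5 CPM) and near YY2-sh (16.3 to 19.4 CPM). TRIM15 also had 12 to 24 counts in HFD against 0 or 1 in ND, and the log2 fold change of FOXRED1 with YY2-sh was -0.89. Of the replicate pairs, those with FOXRED1-sh 3, the smallest library, stood farthest apart, with chi-squares per gene of 7.94 and 6.90 against 2.16 for the other pair of that group (sampling alone gives 1). All 8 epithelial markers averaged at least 1 CPM (counts scaled to a common library size by TMM over the 24 libraries) in every group, and their sum ranged from 11540 to 17720 CPM. It was 14110 to 14320 in HFD against 12820 to 13000 in ND, and 17020 to 17720 in YY2-sh against 12280 to 13060 in YY2-NC. The single markers did not all move with the sum, of which KRT19 alone made 7159 CPM in HFD and 6909 in ND. In HFD 5 were called higher (edgeR adjusted p under 0.05) and 1, CDH1 (-0.31), lower, where 25.6% of all genes were higher and 23.9% lower. With YY2-sh 4 were higher and 4 lower, where 36.8% of all genes were higher and 38.1% lower. The endothelial and adipocyte markers summed to at most 1.31 and 1.49 CPM in any library. Of 8 fibroblast markers only COL1A1 reached 1 CPM, in cultures and tumors alike, and the list summed to 10.8 to 45.3 CPM. Of 8 leukocyte markers 2 did, CD14 and ITGAM, and the list summed to 8.25 to 26.8 CPM. COL1A1 was lower in HFD (log2 fold change -0.33) and higher with YY2-sh (2.00) and FOXRED1-sh (0.71). ITGAM was lower in HFD (-0.32) and with YY2-sh (-0.75) and higher with TRIM15-OE (0.35), and the adipocyte marker PLIN1 was higher with YY2-sh (2.03) at 1.00 CPM. The part of these markers in the results was not tested. The cultures were of OE33 cells only, so there these markers do not count cells of other types. In the tumors, cells of other types would come from the mouse, while the markers counted are human genes. The handling of mouse reads is not given, so what these sums say of mouse cells is not known. In bulk RNA of the tumors, fewer cells of a type and less RNA per cell cannot be told apart.

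The levels were described first in the 4 control groups, per kb of exon so that genes can be compared. AREG, EREG, ERBB2 and GRB7 were the most abundant of the 10 genes in ND. AREG averaged 262 ± 24.8 CPM per kb (SD, n = 3), GRB7 155 ± 7.84, EREG 147 ± 4.51 and ERBB2 140 ± 7.26. In TRIM15-EV and YY2-NC the ligands EREG (266 ± 4.29 and 250 ± 11.4) and AREG (263 ± 8.70 and 232 ± 20.4) led, both above ERBB2 (109 ± 2.29 and 107 ± 5.04). In FOXRED1-NC EREG (173 ± 5.80) lay above ERBB2 (140 ± 4.34), but AREG (109 ± 6.62) lay below it. EGFR ranged from 56.3 ± 1.65 in FOXRED1-NC to 70.4 ± 0.436 in YY2-NC. ERBB3 was far lower than ERBB2 in each control group, at 12.7 to 18.6 CPM per kb, and HBEGF was the lowest ligand, at 2.93 to 7.56. Among 17522 expressed genes, 8 of the 10 lay at or above the 94.2 percentile in every control group. ERBB3 lay between the 77.3 and 85.0 percentiles and HBEGF between the 46.4 and 65.6 percentiles.

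**Figure D1:**
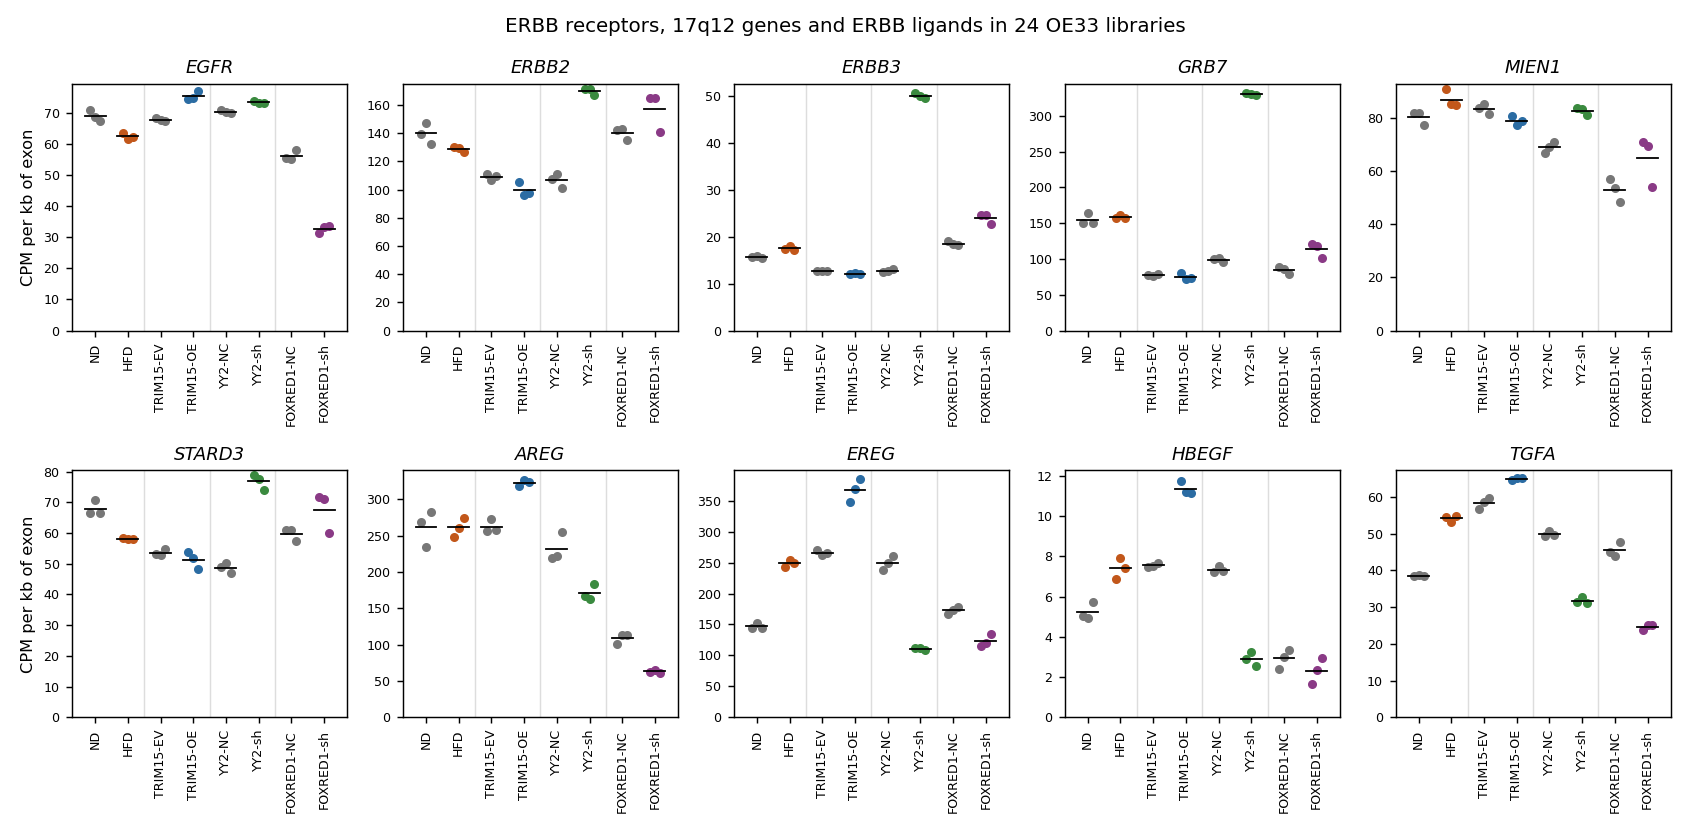
Level of each gene in CPM per kb of exon (y axis, linear, from 0, own scale per panel) in the 8 groups (x axis). Points are libraries, in replicate order, bars are means of 3, controls are grey. ERBB3 and GRB7 stood highest in YY2-sh, at 50.2 and 331 CPM per kb, and EGFR lowest in FOXRED1-sh, at 32.8.

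The control groups differed among themselves. A joint edgeR fit of the 12 control libraries compared ND tumors with the mean of the 3 culture controls, and at an adjusted p under 0.05 called 34.5% of 17135 genes higher in ND and 31.9% lower. Of the 10 genes, 7 were higher and 2 lower in ND than the mean of the culture controls. Of the higher genes only GRB7 and STARD3 had a mean CPM in ND above every culture control group. EREG and TGFA were lowest in ND. AREG averaged 431 CPM in ND, 433 in TRIM15-EV, 382 in YY2-NC and 180 in FOXRED1-NC. GRB7 differed most, by a log2 difference of 0.82 (SE 0.033, edgeR adjusted p = 2.88e-16), and AREG by 0.45 (SE 0.046, edgeR adjusted p = 6.59e-09). EREG (-0.64, SE 0.030, edgeR adjusted p = 3.50e-15) and TGFA (-0.43, SE 0.029, edgeR adjusted p = 3.47e-12) were lower in ND. HBEGF did not pass (-0.09, edgeR adjusted p = 0.223), but did without FOXRED1-NC 1 (-0.15, edgeR adjusted p = 0.0320). The EGFR call was lost without ND 1 (edgeR adjusted p = 0.111). Growth in mice, the diet and the handling of the experiment cannot be told apart in this contrast. With library totals in place of TMM, 66.6% of all calls were higher against 52.0%, and the median of all genes moved from 0.03 to 0.16.

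The 3 culture controls are the same cell line, yet FOXRED1-NC stood apart from the others. It had the lowest ligand levels of the cultures, with 167, 186 and 186 CPM for AREG against 361, 365 and 421 in YY2-NC and 424, 449 and 425 in TRIM15-EV. The FOXRED1-NC libraries lay below all 6 others. Against FOXRED1-NC, AREG was higher in TRIM15-EV by 1.27 (SE 0.061, edgeR adjusted p = 3.78e-15) and in YY2-NC by 1.09 (SE 0.061, edgeR adjusted p = 1.03e-13). HBEGF was higher by 1.38 (SE 0.091) and 1.34 (SE 0.093), and for ERBB2 the differences were -0.36 (SE 0.039) and -0.39 (SE 0.039), each past the threshold. All 10 genes were called in both of these contrasts, where 36.5% of genes were higher and 35.2% lower in TRIM15-EV, and 35.5% higher and 33.0% lower in YY2-NC. Without FOXRED1-NC 1 GRB7 missed the threshold in the first (edgeR adjusted p = 0.0559), and without FOXRED1-NC 2 TGFA missed it in the second (edgeR adjusted p = 0.0532). TRIM15-EV and YY2-NC were closer to each other, with 18.8% of genes higher and 17.5% lower in TRIM15-EV. Between them 5 of the 10 were higher and 1, GRB7 (-0.35, SE 0.043, edgeR adjusted p = 9.09e-07), was lower. Without TRIM15-EV 2, YY2-NC 1 or YY2-NC 2 in turn 3 were higher, as AREG and EREG missed the threshold. EREG also missed it without TRIM15-EV 1 (edgeR adjusted p = 0.137) or TRIM15-EV 3 (edgeR adjusted p = 0.0745) and with library totals (edgeR adjusted p = 0.177), and AREG with DESeq2's Wald test (adjusted p = 0.0842). ERBB2 (0.03, SE 0.039) and ERBB3 (-0.01, SE 0.035) did not pass. The source of these differences between control groups was not tested.

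In order of mean CPM, the ranges of neighbours overlapped in some places. For EGFR (YY2-NC, ND, TRIM15-EV, FOXRED1-NC) only the step down to FOXRED1-NC was free of overlap. For ERBB2 (FOXRED1-NC, ND, TRIM15-EV, YY2-NC) only the step between ND and TRIM15-EV was. ERBB3 (FOXRED1-NC, ND, YY2-NC, TRIM15-EV) and GRB7 (ND, YY2-NC, FOXRED1-NC, TRIM15-EV) overlapped in the last step only. MIEN1 (TRIM15-EV, ND, YY2-NC, FOXRED1-NC) and HBEGF (TRIM15-EV, YY2-NC, ND, FOXRED1-NC) overlapped in the first step only. AREG (TRIM15-EV, ND, YY2-NC, FOXRED1-NC) was separated only at FOXRED1-NC. STARD3 (ND, FOXRED1-NC, TRIM15-EV, YY2-NC) showed no overlap between neighbours, and neither did EREG and TGFA, both in the order TRIM15-EV, YY2-NC, FOXRED1-NC, ND. The highest group exceeded the lowest 1.25-fold for EGFR, 1.31-fold for ERBB2, 2.00-fold for GRB7 and 2.58-fold for HBEGF.

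With YY2-sh, ERBB2, ERBB3 and the 17q genes rose and the ligands fell. ERBB3 rose 3.84-fold and GRB7 3.27-fold, the largest rises among the 10 in any experiment, while EREG and HBEGF fell more than any of the 4 ligands did in another experiment. Of the 10 genes, 5 were called higher and 4 lower. This experiment changed most of the transcriptome, since 36.8% of 16006 genes were called higher and 38.1% lower. The median log2 fold change of the 10 was 0.13, against -0.01 over all genes.

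ERBB3 (chr12:56076799-56103505, plus strand, GRCh38) had 459, 453 and 449 CPM in YY2-sh and 113, 116 and 118 CPM in YY2-NC. All treated libraries lay far above all controls. The log2 fold change was 1.94 (SE 0.030, edgeR adjusted p = 7.48e-17). GRB7 (chr17:39737927-39747291, plus strand) had 1194, 1190 and 1186 CPM in YY2-sh and 361, 364 and 343 CPM in YY2-NC, again with a wide gap. It rose by 1.71 (SE 0.029, edgeR adjusted p = 1.67e-16). ERBB2 (chr17:39687914-39730426, plus strand) had 1768, 1770 and 1728 CPM against 1113, 1147 and 1045 CPM. The groups did not overlap, and the rise was 0.64 (SE 0.031, edgeR adjusted p = 2.80e-11). STARD3 (chr17:39637065-39663484, plus strand) rose by nearly as much, 0.62 (SE 0.033, edgeR adjusted p = 6.92e-11). MIEN1 (chr17:39728496-39730787, minus strand) rose least, by 0.23 (SE 0.032, edgeR adjusted p = 7.39e-06). The exons of MIEN1 and ERBB2 share 571 bases on opposite strands, and those of ERBB2 share 194 with PGAP3. The sources disagree on whether the library kit kept strand, so reads from those bases cannot be assigned with certainty. EGFR (chr7:55019021-55211628, plus strand) had 926, 916 and 915 CPM against 887, 879 and 876 CPM. The groups were apart by a narrow gap and the fit gave 0.03 (SE 0.024, edgeR adjusted p = 0.290).

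The 4 ligands fell with YY2-sh. EREG (chr4:74365143-74388751, plus strand) had 641, 638 and 617 CPM against 1364, 1423 and 1494 CPM in YY2-NC. No treated library came near a control, and the fall was 2.31-fold (log2 -1.21, SE 0.032, edgeR adjusted p = 2.45e-14). HBEGF (chr5:140332843-140346631, minus strand) had 142, 161 and 140 counts against 401, 388 and 439. It fell 2.60-fold (log2 -1.38, SE 0.085, edgeR adjusted p = 5.13e-10). TGFA (chr2:70447280-70554193, minus strand) had 156, 163 and 155 CPM against 245, 252 and 247 CPM. The groups were well apart, at a log2 fold change of -0.68 (SE 0.031, edgeR adjusted p = 1.03e-11). AREG (chr4:74445134-74455009, plus strand) fell less, from 361, 365 and 421 CPM to 275, 268 and 303 CPM, without overlap. Its log2 fold change was -0.47 (SE 0.054, edgeR adjusted p = 9.48e-07).

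With FOXRED1-sh, EGFR and 3 ligands fell and the other receptors and 17q genes rose by smaller amounts. Of the 10 genes 5 were called higher and 4 lower, against a background of 16.8% higher and 19.7% lower of 15730 genes. The median of the 10 was -0.08 and that of all genes 0.01. With library totals in place of TMM, 57.3% of all calls were higher against 46.1%. EGFR had 392, 418 and 422 CPM in FOXRED1-sh and 694, 692 and 729 CPM in FOXRED1-NC. The treated libraries were all far below the controls, by 1.71-fold (log2 -0.77, SE 0.048, edgeR adjusted p = 2.12e-09). TGFA fell 1.84-fold, from 224, 218 and 237 CPM to 118, 124 and 125 CPM (log2 -0.88, SE 0.056, edgeR adjusted p = 3.03e-09). AREG fell 1.71-fold, from 167, 186 and 186 CPM to 103, 108 and 101 CPM (log2 -0.78, SE 0.060, edgeR adjusted p = 2.77e-08). Neither ligand had overlapping groups. EREG fell by 0.48 (SE 0.055, edgeR adjusted p = 2.36e-06). HBEGF had 91, 133 and 131 counts against 133, 137 and 151, groups that overlapped in CPM, and did not pass (-0.34, SE 0.185, edgeR adjusted p = 0.173).

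GRB7 rose with FOXRED1-sh, with 435, 425 and 367 CPM against 321, 309 and 284 CPM. The third treated library was the lowest of its group and still above all controls, and the log2 fold change was 0.44 (SE 0.063, edgeR adjusted p = 3.76e-05). ERBB3 rose by 0.38 (SE 0.054, edgeR adjusted p = 2.92e-05) without overlap. ERBB2 had 1701, 1704 and 1457 CPM against 1471, 1475 and 1395 CPM, so that FOXRED1-sh 3 lay among the controls. Its log2 fold change was 0.17 (SE 0.053, edgeR adjusted p = 0.0153). MIEN1 (0.30, SE 0.087, edgeR adjusted p = 0.0108) and STARD3 (0.19, SE 0.062, edgeR adjusted p = 0.0232) overlapped too. Without FOXRED1-sh 3 these 3 log2 fold changes were 0.24, 0.41 and 0.26, and HBEGF passed the threshold (-0.53, edgeR adjusted p = 0.0136). Without FOXRED1-sh 1, FOXRED1-sh 2 or FOXRED1-NC 3 in turn, ERBB2, MIEN1 and STARD3 did not pass and 2 of the 10 were called higher. STARD3 also missed the threshold without FOXRED1-NC 1 (edgeR adjusted p = 0.0595) or FOXRED1-NC 2 (edgeR adjusted p = 0.0590).

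With TRIM15-OE, the 4 ligands and EGFR rose and ERBB2 fell slightly. Of the 10 genes 5 were called higher and 1 lower, where 12.5% of 15745 genes were higher and 9.53% lower. The median of the 10 was 0.06 and that of all genes -0.01. HBEGF had 709, 508 and 519 counts, or 35.5, 33.8 and 33.6 CPM, against 22.5, 22.8 and 23.1 CPM in TRIM15-EV. The groups were clearly separate, and HBEGF rose 1.51-fold (log2 0.60, SE 0.054, edgeR adjusted p = 2.38e-06). EREG had 1991, 2110 and 2201 CPM against 1549, 1501 and 1516 CPM. It was the most abundant of the 10 in both groups in CPM and rose 1.38-fold (log2 0.47, SE 0.034, edgeR adjusted p = 2.11e-07). AREG rose from 424, 449 and 425 CPM to 525, 538 and 534 CPM (log2 0.30, SE 0.032, edgeR adjusted p = 9.88e-06). TGFA (0.16, SE 0.031, edgeR adjusted p = 0.00233) and EGFR (0.16, SE 0.027, edgeR adjusted p = 0.000839) rose by small amounts, without overlap.

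ERBB2 had 1090, 994 and 1006 CPM in TRIM15-OE and 1147, 1101 and 1132 CPM in TRIM15-EV. The highest treated library lay just under the lowest control, and the log2 fold change was -0.12 (SE 0.034, edgeR adjusted p = 0.0170). The call was lost without TRIM15-OE 2, TRIM15-EV 1 or TRIM15-EV 3 (edgeR adjusted p from 0.0634 to 0.0843). ERBB3 (-0.06), GRB7 (-0.04), MIEN1 (-0.07) and STARD3 (-0.06) did not pass, although the groups of ERBB3 and MIEN1 did not overlap. Without TRIM15-OE 1, GRB7, MIEN1 and STARD3 were called lower too, at log2 fold changes of -0.10, -0.09 and -0.10. With library totals in place of TMM, MIEN1 was called lower as well (-0.11, edgeR adjusted p = 0.0336), and 40.6% of all calls were higher against 56.8%.

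In the xenografts, EREG, HBEGF and TGFA were higher in HFD than in ND tumors and AREG did not pass. EGFR, ERBB2 and STARD3 were lower by small amounts. Of the 10 genes 5 were called higher and 3 lower, where 25.6% of 17012 genes were higher and 23.9% lower. The median of the 10 was 0.07 and that of all genes -0.01. EREG had 1389, 1449 and 1427 CPM in HFD and 830, 870 and 822 CPM in ND. All HFD libraries were far above all ND libraries, 1.69-fold (log2 0.76, SE 0.034, edgeR adjusted p = 4.29e-11). TGFA had 271, 264 and 271 CPM against 191, 192 and 191 CPM, also far apart (log2 0.49, SE 0.033, edgeR adjusted p = 4.40e-09). HBEGF had 20.7, 23.9 and 22.4 CPM against 15.2, 14.9 and 17.3 CPM, and rose 1.42-fold (log2 0.51, SE 0.071, edgeR adjusted p = 1.87e-05). AREG had 410, 430 and 453 CPM against 443, 386 and 465 CPM. The groups overlapped almost wholly, and the fit gave -0.00 (SE 0.054, edgeR adjusted p = 0.998).

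Among the receptors, EGFR had 795, 772 and 778 CPM in HFD and 889, 858 and 845 CPM in ND. The groups did not overlap (log2 -0.15, SE 0.033, edgeR adjusted p = 0.00161). ERBB2 had 1348, 1340 and 1309 CPM against 1442, 1519 and 1369 CPM, a gap narrower than the spread in ND (log2 -0.12, SE 0.038, edgeR adjusted p = 0.0173). Its call was lost without HFD 3 (edgeR adjusted p = 0.0787) or ND 2 (edgeR adjusted p = 0.0552). ERBB3 was higher in HFD by 0.15 (SE 0.035, edgeR adjusted p = 0.00210). STARD3 had 302, 300 and 299 CPM against 343, 365 and 344 CPM, without overlap and with the largest fall of the 10 genes in HFD (log2 -0.23, SE 0.036, edgeR adjusted p = 6.47e-05). MIEN1 was higher by 0.11 (SE 0.039, edgeR adjusted p = 0.0266), a call lost without HFD 1 (edgeR adjusted p = 0.144) or ND 3 (edgeR adjusted p = 0.0783). GRB7 did not pass (0.03, SE 0.039, edgeR adjusted p = 0.542), but did without ND 2 (0.08, edgeR adjusted p = 0.0381). With library totals in place of TMM the median of all genes moved from -0.01 to -0.12, and 30.4% of all calls were higher against 51.7%. On that scale ERBB3 (0.04) and MIEN1 (0.00) did not pass and GRB7 turned to -0.08, while EREG, HBEGF and TGFA were still called higher.

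**Figure D2:**
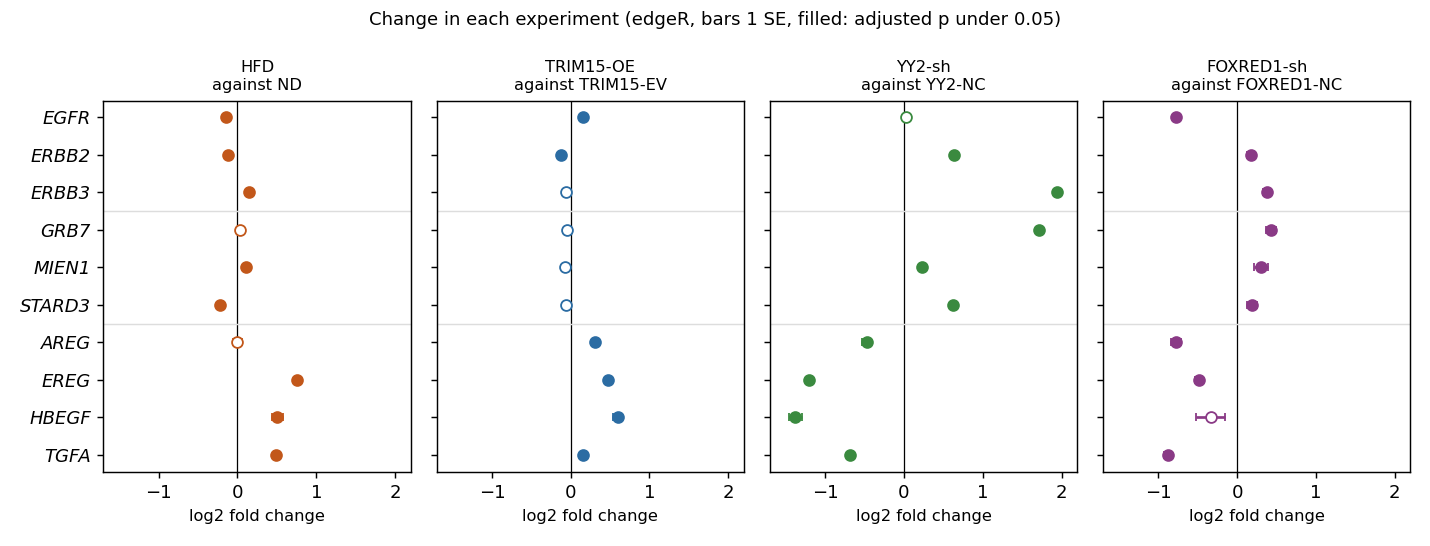
Log2 fold change (x axis) of the 10 genes (y axis: receptors, 17q genes, ligands) in the 4 experiments. Bars are 1 SE, filled points passed an adjusted p of 0.05. Ligands lay right of 0 with TRIM15-OE and left of 0 with YY2-sh and FOXRED1-sh, where HBEGF (-0.34) did not pass. ERBB3 reached 1.94 and GRB7 1.71 with YY2-sh.

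Ratios of counts within a library do not depend on scaling between libraries. Each was compared by an exact two-sided permutation test, which with 3 against 3 cannot go below p = 0.1. The log2 ratio of ERBB2 to EGFR rose by 0.94 with FOXRED1-sh, from 1.04 ± 0.087 to 1.98 ± 0.169 (SD, n = 3, exact permutation p = 0.1), and by 0.61 with YY2-sh. With TRIM15-OE the difference was -0.29, and none of these 3 overlapped. In the xenografts the difference was 0.03 and the groups overlapped, as both receptors were lower in HFD. The ratio of ERBB3 to EGFR rose by 1.91 with YY2-sh, 1.15 with FOXRED1-sh and 0.30 in HFD, and with TRIM15-OE the difference was -0.22, without overlap in any. GRB7 rose over ERBB2 in each experiment, by 0.15 in HFD, 0.08 with TRIM15-OE, 1.07 with YY2-sh and 0.26 with FOXRED1-sh, without overlap in any. STARD3 and ERBB2, in contrast, kept a mean log2 ratio between -2.23 and -2.13 in both knockdown experiments, where the groups differed by -0.02 and 0.01 and overlapped. With TRIM15-OE the difference was 0.07, with overlap, but in HFD the ratio was lower, at -2.15 ± 0.017 against -2.04 ± 0.043 in ND, without overlap (exact permutation p = 0.1). The ratio of EREG to AREG rose by 0.76 in HFD, from 0.97 ± 0.183 to 1.72 ± 0.057, and by 0.16 with TRIM15-OE and 0.29 with FOXRED1-sh. It fell by 0.74 with YY2-sh. None of these 4 overlapped.

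**Figure D3:**
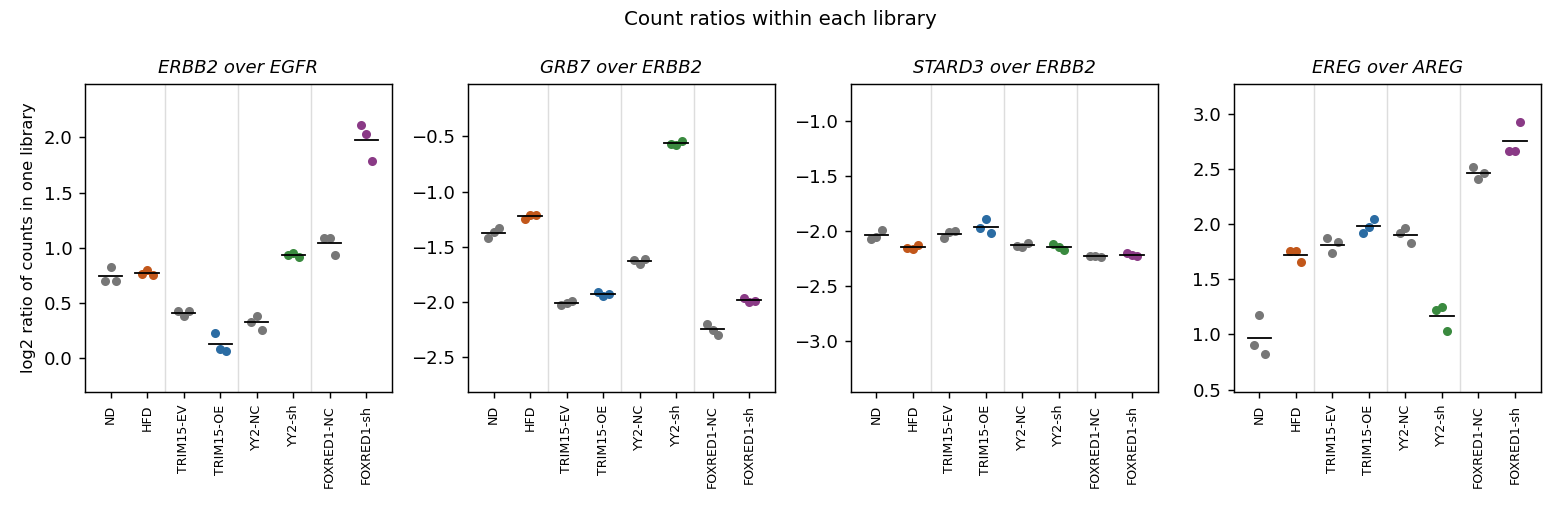
Log2 ratio of the counts of 2 genes in the same library (y axis, each panel spans the same range) in the 8 groups (x axis). Points are libraries, bars are means, controls are grey. GRB7 over ERBB2 was highest in YY2-sh (-0.56), ERBB2 over EGFR in FOXRED1-sh (1.98), and STARD3 over ERBB2 stayed between -2.23 and -1.96 in all group means.

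The genes around ERBB2 were read from a list of 26 other genes of 17q12-q21. Counts in this and the later lists stand against the shares of all genes in each experiment. With YY2-sh 36.8% of genes were higher and 38.1% lower, and with FOXRED1-sh 16.8% and 19.7%. With TRIM15-OE these shares were 12.5% and 9.53%, and in HFD 25.6% and 23.9%. Between STARD3 and GRB7, PGAP3, which acts on GPI anchors, was expressed at 15.7 to 25.0 CPM per kb in the control groups, while TCAP and PNMT were below 1 CPM per kb. IKZF3, the next gene beyond GRB7, was at 0.136 to 0.490. The neighbours moved in both directions. With YY2-sh 22 of 26 were tested, 10 were higher and 9 lower, and their median was -0.01. GSDMB, a gasdermin 217 kb from the ERBB2 start, rose from 157 ± 1.93 to 649 ± 12.2 CPM (log2 2.02, SE 0.029, edgeR adjusted p = 4.35e-17). CDC6, a DNA replication licensing factor, fell by 2.63 (SE 0.049, edgeR adjusted p = 6.40e-16), and CSF3, the granulocyte colony-stimulating factor, fell by 3.45 (SE 0.182, edgeR adjusted p = 7.11e-11). PGAP3, inside the ERBB2 cluster, did not pass (0.04, edgeR adjusted p = 0.380).

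With FOXRED1-sh 7 neighbours were higher and 4 lower of 21 tested (median 0.02). GSDMB rose by 0.73 (SE 0.059) and PGAP3 by 0.49 (SE 0.069), while TOP2A, a topoisomerase of dividing cells, fell by 0.75 (SE 0.064). CSF3 rose by 1.99 (SE 0.438) from a mean of 0.331 CPM. With TRIM15-OE 3 were higher and 4 lower of 21 (median -0.00). CSF3 rose from 2.64 to 7.44 CPM (edgeR adjusted p = 5.04e-07), NR1D1, a nuclear receptor of the circadian clock, rose by 0.31 (SE 0.070), and PGAP3 fell by 0.26 (SE 0.047). In HFD 11 were higher and 3 lower of 21 (median 0.12). CSF3 rose from 9.09 to 22.6 CPM (log2 1.31, SE 0.069, edgeR adjusted p = 2.15e-10), NR1D1 by 1.05 (SE 0.067), and GSDMA by 0.65 (SE 0.209) from 1.23 CPM. PGAP3 fell by 0.32 (SE 0.045).

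**Figure D4:**
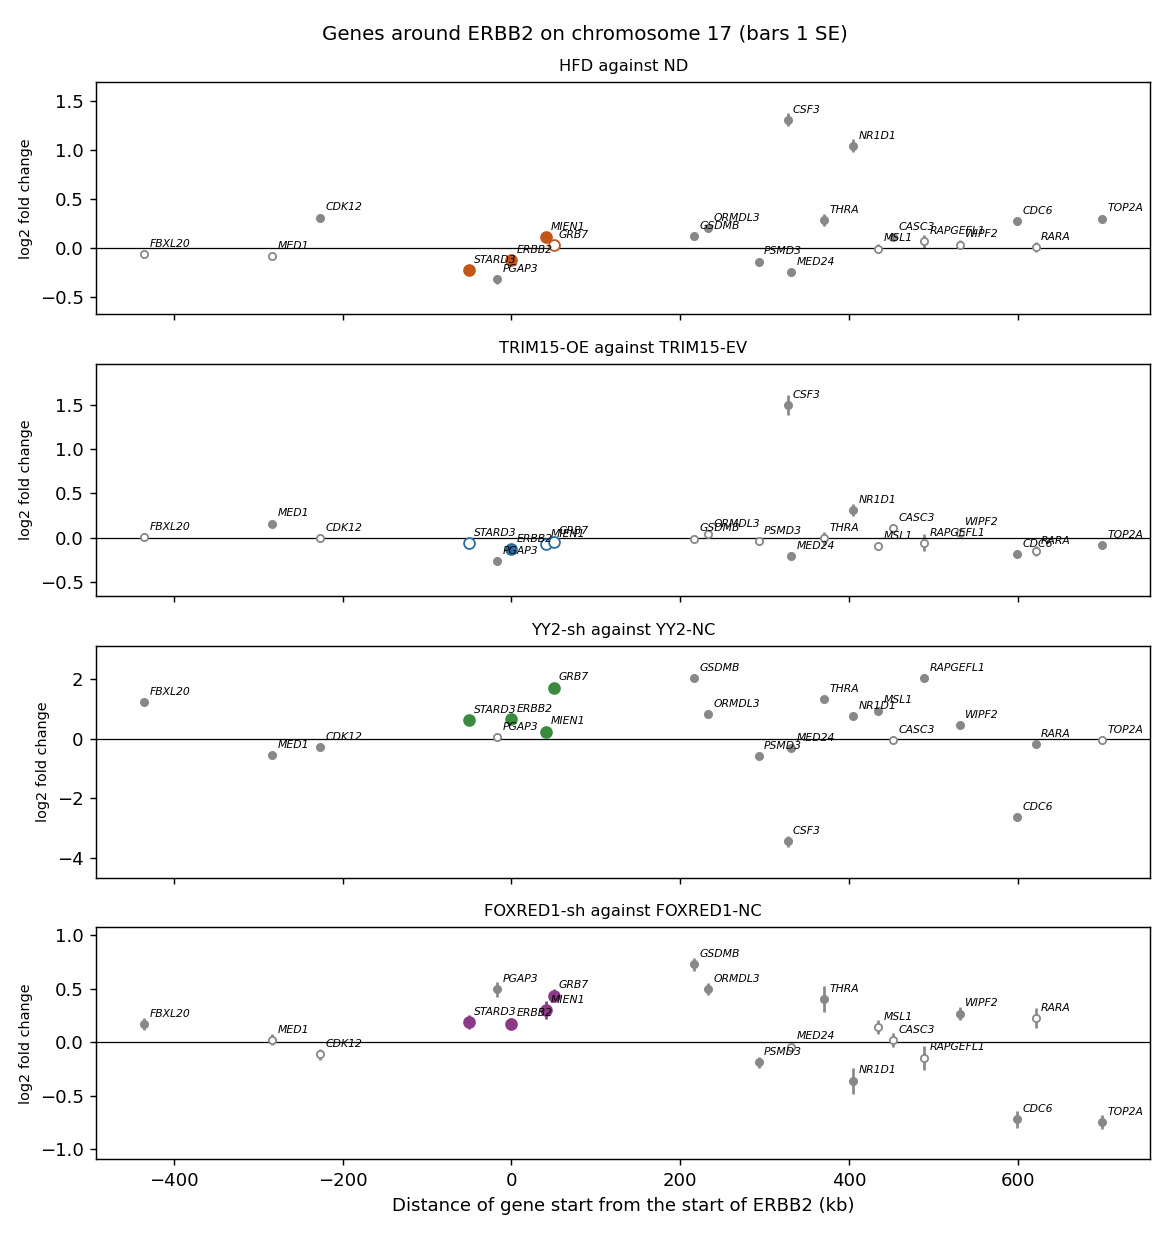
Log2 fold change (y axis, own scale per panel, bars 1 SE) of genes by the distance of their start from that of ERBB2 in kb (x axis), for genes tested with a control mean of at least 1 CPM per kb. Coloured points are genes of the set, grey points other neighbours, filled points passed an adjusted p of 0.05. With YY2-sh, GRB7 (1.71) and GSDMB (2.02) rose most of the genes in the plot together with RAPGEFL1 (2.02), and CDC6 (-2.63) and CSF3 (-3.45) fell.

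Few genes on the list of 8 that held the other ERBB ligands and ERBB4 were expressed. ERBB4, NRG1, NRG2 and NRG3 were tested in no experiment, as their counts were too low. EGF was lower in HFD, at 2.25 ± 0.093 CPM against 6.78 ± 0.856 CPM (log2 -1.60, SE 0.124, edgeR adjusted p = 2.25e-08). It was higher with YY2-sh, at 6.04 ± 0.135 against 2.52 ± 0.488 CPM (log2 1.23, SE 0.146, edgeR adjusted p = 1.35e-06), so that in both it moved against the 3 ligands EREG, HBEGF and TGFA. BTC, betacellulin, was higher in HFD by 0.26 (SE 0.080) and lower with YY2-sh (-0.67, SE 0.085) and with FOXRED1-sh (-0.32, SE 0.103). In all, 1 was higher and 1 lower of 4 tested in HFD (median -0.03), 1 and 1 of 2 with YY2-sh (median 0.28) and 1 was lower of 3 with FOXRED1-sh (median -0.31). With TRIM15-OE 2 were tested (median -0.11), and neither EGF (-0.29, edgeR adjusted p = 0.360) nor BTC (0.07, edgeR adjusted p = 0.646) passed.

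The list of ligand shedding and trafficking held 10 genes. In HFD 5 were higher and 4 lower of 9 tested (median 0.26). ADAM9, a membrane metalloprotease, rose from 298 ± 10.6 to 554 ± 9.09 CPM (log2 0.89, SE 0.035, edgeR adjusted p = 7.38e-12), ADAM15 rose by 0.44 (SE 0.039), and ADAM12 fell by 0.93 (SE 0.227) from 1.61 CPM. ADAM17, the main sheddase of AREG, EREG, HBEGF and TGFA, rose by 0.37 (edgeR adjusted p = 3.88e-07). With TRIM15-OE 3 were higher and 1 lower of 9 (median 0.01), with ADAM9 at 0.20 (SE 0.030), ADAM17 at 0.18 (SE 0.049) and RHBDF1, an inactive rhomboid that guides ADAM17, at -0.17 (SE 0.046). With YY2-sh 4 were higher and 2 lower of 9 (median 0.10), with RHBDF1 at 0.74 (SE 0.041), RHBDF2 at 0.44 (SE 0.036) and CNIH1, a cargo receptor for TGFA, at -0.69 (SE 0.039). With FOXRED1-sh 2 were higher and 2 lower of 10 (median 0.00), with ADAM9 at -0.44 (SE 0.046), CNIH1 at -0.52 (SE 0.083) and RHBDF1 at 0.30 (SE 0.064). ADAM17 did not pass with either shRNA (0.05 and 0.06).

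Receptor inhibitors and turnover genes made a list of 19, all tested in each experiment. In HFD 10 were higher and 2 lower (median 0.11), led by CD2AP, an adaptor of receptor endocytosis (0.71, SE 0.034), the phosphatase PTPN2 (0.57, SE 0.053) and EPS15, an endocytic adaptor (0.50, SE 0.042). With TRIM15-OE 8 were higher (median 0.11), among them CD2AP (0.37, SE 0.036), ERRFI1, a feedback inhibitor of ERBB kinases (0.29, SE 0.028), and SOCS5 (0.22, SE 0.050). With YY2-sh 12 were higher and 5 lower (median 0.19), where 36.8% of all genes were higher and 38.1% lower. CBLB, a ubiquitin ligase of receptors (0.87, SE 0.082), and the phosphatase PTPRJ (0.84, SE 0.032) rose and LRIG3 fell (-1.04, SE 0.086). With FOXRED1-sh 1 was higher and 6 lower (median -0.06). ERRFI1 fell from 484 ± 0.754 to 245 ± 14.8 CPM (log2 -0.97, SE 0.052, edgeR adjusted p = 4.72e-10), as did LRIG1, an inhibitor that speeds receptor loss (-1.08, SE 0.151), and PTPN1 (-0.57, SE 0.063). EGFR fell in the same libraries.

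Of 20 adaptors and proximal effectors 19 were tested. In HFD 14 were higher and 3 lower (median 0.20), with STAT5A at 0.67 (SE 0.063), PIK3R1, a regulatory subunit of PI3K, at 0.45 (SE 0.057) and the adaptor NCK2 at -0.59 (SE 0.047). With TRIM15-OE 6 were higher and 1 lower (median 0.05), and the leading changes were small, STAT5A at 0.25 (SE 0.068), the docking protein GAB2 at 0.25 (SE 0.062) and PIK3CA at 0.21 (SE 0.045). With YY2-sh 12 were higher and 2 lower (median 0.31). GAB2 rose from 24.7 ± 0.701 to 58.5 ± 2.63 CPM (log2 1.22, SE 0.051, edgeR adjusted p = 4.53e-12), SOS1, an exchange factor for RAS, by 0.83 (SE 0.033), and GAB1 by 0.82 (SE 0.054). With FOXRED1-sh 4 were higher and 6 lower (median -0.11), with PIK3R3 at 0.65 (SE 0.103), STAT5A at 0.40 (SE 0.086) and GAB2 at -0.41 (SE 0.104).

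The genes most like ERBB2 and AREG were sought among 14519 genes tested in all 4 experiments, by Pearson's r of log2 CPM over 24 libraries after subtracting the control mean of each experiment. The libraries fall into the groups of 4 experiments and share them, so r is a description and has no p. For ERBB2 the 5 highest were SH3GLB2 (r = 0.989), FAM234A (0.989), SBF1 (0.987), PLXNB2 (0.987) and PNPLA6 (0.987), with Spearman's rho of 0.911 to 0.937 and r of 0.913 to 0.956 over the 21 libraries without YY2-sh. None lies on the 17q list. For AREG they were LRRFIP1 (r = 0.972), HACD3 (0.967), APOBEC3B (0.957), TENT4B (0.955) and SGMS2 (0.955), with rho of 0.801 to 0.953 and r of 0.949 to 0.972 without YY2-sh. Among the 10 genes, ERBB2 was closest to STARD3 (0.978) and GRB7 (0.970), ERBB3 to GRB7 (0.993), and EREG to HBEGF (0.951). These r include the YY2-sh libraries, where ERBB3 (1.94) and GRB7 (1.71) changed most, and were not computed without them. EGFR was not close to the other receptors, with r of -0.07 to ERBB2 and 0.01 to ERBB3.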

How the data were processed

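The values the authors deposited are whole-number read counts for 61860 Ensembl identifiers, 1 table per experiment, with no normalization. The submitters' processing notes name the builds hg38 and mm10 without a role. The aligner, the counter and the handling of mouse reads are not given in the sources used here. Positions and exon lengths are from GENCODE 29 (GRCh38). All 37 mitochondrial genes are at 0.

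Each experiment was fitted on its own 6 libraries, and the 12 control libraries together, with edgeR 4.0.16 in R 4.3.3 (filterByExpr with a minimum count of 10 and a total of 15, TMM, glmQLFit, glmQLFTest, Benjamini-Hochberg over all genes tested, threshold 0.05, no fold limit). SE is the log2 fold change over the square root of F. CPM values use 1 TMM scaling of all 24 libraries. The procedure was tested on simulated counts. Labels name separate libraries and do not say whether they were separate cultures or tumors of separate mice. The p-values therefore measure the spread between libraries. No replicate pair differed by less than sampling noise.

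All 10 genes are named. From each other list the text names up to 3 genes per experiment, those with the largest change past the threshold, a mean of at least 1 CPM in 1 of the groups and no overlap. ADAM17, PGAP3, TCAP, PNMT, IKZF3 and RAPGEFL1 were added after their values were seen. The genes and lists were chosen with earlier results of these data known. Alternatives were DESeq2 1.42.0 (size factors, Wald test), library totals, other filters, a replicate block and leaving out each library. The correlation without YY2-sh and the count ratios were added after seeing the data.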

Additional observations from a re-analysis of the deposited data

How the results depend on the processing

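No call or direction of the 10 genes changed in YY2-sh under the alternatives run. With library totals 3 of the 10 were higher in HFD (2800 genes higher and 6415 lower in all). With the same setting 2 were lower with TRIM15-OE (2214 genes in all), and 2 were lower in TRIM15-EV against YY2-NC (3554 in all). DESeq2's Wald test called 974 genes lower with TRIM15-OE. Values near 0 changed sign. The log2 fold change of AREG in HFD was 0.00255 with DESeq2's size factors, 0.000523 with its Wald test, 0.0168 without a filter, and from -0.0703 to 0.0633 with 1 library left out. That of GRB7 in HFD was -0.0796 and that of HBEGF in ND against the culture controls 0.0375, both with library totals. In TRIM15-EV against YY2-NC, ERBB3 was 0.00553 without a filter, and with 1 library left out ERBB3 ranged from -0.0203 to 0.0115 and ERBB2 from -0.00279 to 0.0646. ERBB2 in HFD missed the threshold without a filter (adjusted p = 0.0655).

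With 1 library left out, TRIM15-OE had from 0 to 4 of the 10 genes lower, 1247 to 2594 genes higher and 787 to 2506 lower in all. FOXRED1-sh had from 2 to 5 of the 10 higher, with 2080 to 3215 genes higher in all. TRIM15-EV against YY2-NC had from 3 to 5 higher, with 2710 to 3371 in all. The cause of these changes was not tested.

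The labels give groups the same replicate numbers, but the deviations of same-numbered libraries correlated between -0.05 and 0.16, and in no experiment did all 3 pairs pass 0.1 or every library correlate best with its own number. With the replicate block HBEGF passed with FOXRED1-sh (-0.35, adjusted p = 0.0465), where 3157 genes were higher and 3636 lower in all. The block changed no other call of the 10 genes. HBEGF, with 91 to 872 counts per library, was the gene most limited by depth.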
